A study of Homo sapiens with 21 samples.

Results

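The nuclear-encoded subunits of oxidative phosphorylation were followed across clones of the established human glioblastoma line U-87MG that carried parkin or the empty vector. The members are the genes whose symbols begin with the subunit prefixes of complexes I, III, IV and V (NDUFA, NDUFB, NDUFC, NDUFS, NDUFV, UQCR, COX4I, COX5, COX6, COX7, COX8 and ATP5), together with CYC1 and the SDH subunit genes of complex II. Pseudogenes and the NDUFAF assembly factors were left out, and only probe sets with a single gene symbol entered. That rule found 88 probe sets of 81 genes among 26947 probe sets, and the brightest probe set stood for each gene. NDUFV1-DT, a non-coding transcript taken in by its prefix, was set aside, which left 80 protein-coding genes: 34 of complex I, 3 of complex II, 8 of complex III, 17 of complex IV and 18 of complex V. ATP5IF1, which encodes an inhibitor of the ATP synthase, and ATP5MGL, a retained copy related to ATP5MG, follow the prefix and were counted with complex V. SDHB and other subunit genes without a probe set of a single symbol were not analysed here.

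There were 3 parkin clones (PK7, PK19 and PK25) and 3 vector clones (V8, V17 and V22), all stable transfectants of the same line, and each clone is a separate selected population with 3 arrays in a series. PK7, PK19, PK25 and a set of V22 arrays made up the second series, and V8, V17 and another set of V22 arrays made up the first, as the prefixes of the array names were read here. V22 is therefore the vector clone that every other clone was compared with inside its own series. Whether the arrays of a clone came from separate cultures is not given in the sources used here, so a p-value computed over arrays covers no more than their spread. Levels are log2 values of the deposited RMA intensities, and a difference is a difference of such log2 values. For the comparison of parkin with vector clones, the first series was first shifted, per probe set, by the difference between the V22 means. Clone means printed for that comparison hold this shift. The introduced parkin transcript itself was not analysed here. The array medians over all probe sets lay between 6.21 and 6.37, and precision is limited by how few clones and arrays there are. The 8 genes fixed as usual in this line averaged 7.51 to 13.05, and the epithelial markers averaged 4.50 to 5.15, the blood markers 3.12 to 5.39, the muscle markers 3.71 to 6.67 and the neuronal markers 5.23 to 7.93. The second array of V8 stood apart among the subunits, with a median difference of -0.18 from the V22 mean and a complex II median of -0.77. The second array of PK19 stood apart too, with a median of -0.18, against 0.06 and 0.05 on the other PK19 arrays. Results of V8 and PK19 are given without these arrays where they changed. Over all probe sets, the third PK25 array and the second PK7 array correlated least with the other arrays of their clone (0.9895 and 0.9899). The second arrays of V8 and PK19 stood at 0.9913 and 0.993.

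Oxidative phosphorylation passes electrons from NADH (complex I) and succinate (complex II) through coenzyme Q to complex III and, by cytochrome c, to complex IV, which reduces oxygen. The proton gradient built by complexes I, III and IV drives ATP synthase, complex V. Most subunits are encoded in the nucleus and assembled with subunits made from mitochondrial DNA, and glioma cells in culture use this system beside glycolysis. Parkin is a ubiquitin ligase known for marking damaged mitochondria for removal, so the comparison asks how transcripts of the respiratory machinery stood in clones that carried it.

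The start regions of NDUFA3, NDUFA6, UQCR10 and ATP5F1A are shown because these genes are among those with the largest differences described below, in complexes I, III and V. Each sequence holds the 250 bases before the annotated start, from RefSeq for GRCh38.p14. Capitals mark 3 motif spellings searched on both strands: GCGCANGC for NRF1, CCGGAAG for factors of the ETS family and AACTCCCA as part of the ZNF143 motif. None of these runs of letters lies within another, though matches of GCGCANGC overlap each other in NDUFA3.
NDUFA3 (chr19:54102605-54102854, plus strand): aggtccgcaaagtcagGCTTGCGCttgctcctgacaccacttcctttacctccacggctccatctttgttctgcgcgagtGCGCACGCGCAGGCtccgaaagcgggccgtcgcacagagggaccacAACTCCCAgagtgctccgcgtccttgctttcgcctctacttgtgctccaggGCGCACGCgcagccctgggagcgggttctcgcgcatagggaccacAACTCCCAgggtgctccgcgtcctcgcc
NDUFA6 (chr22:42090773-42091022, minus strand): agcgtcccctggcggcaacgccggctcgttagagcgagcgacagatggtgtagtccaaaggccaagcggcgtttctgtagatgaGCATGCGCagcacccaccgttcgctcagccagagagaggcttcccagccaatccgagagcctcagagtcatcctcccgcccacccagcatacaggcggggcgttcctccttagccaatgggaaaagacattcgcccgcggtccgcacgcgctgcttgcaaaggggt
UQCR10 (chr22:29767119-29767368, plus strand): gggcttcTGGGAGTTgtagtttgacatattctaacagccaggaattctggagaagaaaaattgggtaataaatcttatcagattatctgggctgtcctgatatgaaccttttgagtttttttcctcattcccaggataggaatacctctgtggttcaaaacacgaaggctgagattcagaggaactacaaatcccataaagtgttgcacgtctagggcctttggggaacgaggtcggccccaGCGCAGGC
ATP5F1A (chr18:46098297-46098546, minus strand): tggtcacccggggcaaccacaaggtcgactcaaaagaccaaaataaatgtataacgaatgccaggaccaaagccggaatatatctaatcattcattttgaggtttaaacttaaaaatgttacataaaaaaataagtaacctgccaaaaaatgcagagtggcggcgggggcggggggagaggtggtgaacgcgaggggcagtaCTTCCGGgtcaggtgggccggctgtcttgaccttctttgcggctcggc

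NDUFA3 carried 4 matches of the NRF1 spelling and 2 of the ZNF143 spelling before its start, NDUFA6 a single NRF1 match, and UQCR10 an NRF1 match that ends at the start and a ZNF143 match 243 bases before it. ATP5F1A has another annotated start, and the window shown held an ETS match. The bases before the other start, not shown, held a ZNF143 match and no ETS match. Windows that also take in 50 bases after the start were given for 67 of the 80 genes, 80 windows in all. The NRF1 spelling was in 37.5% of the subunit windows, against 12% of all 35116 windows of the same length. The ETS spelling was in 26.2% of subunit windows, against 10.3% of all windows. AAGATGGC, a spelling for YY1, was in 15% of subunit windows, against 2.89% of all windows, and AACTCCCA in 7.5%, against 1.72%. ACGTG, the core of the hypoxia response element, was in 23.8% of subunit windows and 21.4% of all windows. The median GC content was 59.2% in subunit windows and 58.7% in all windows. The motifs were chosen after the expression data had been seen, and a match is a description of the letters and not of binding.

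**Figure D1:**
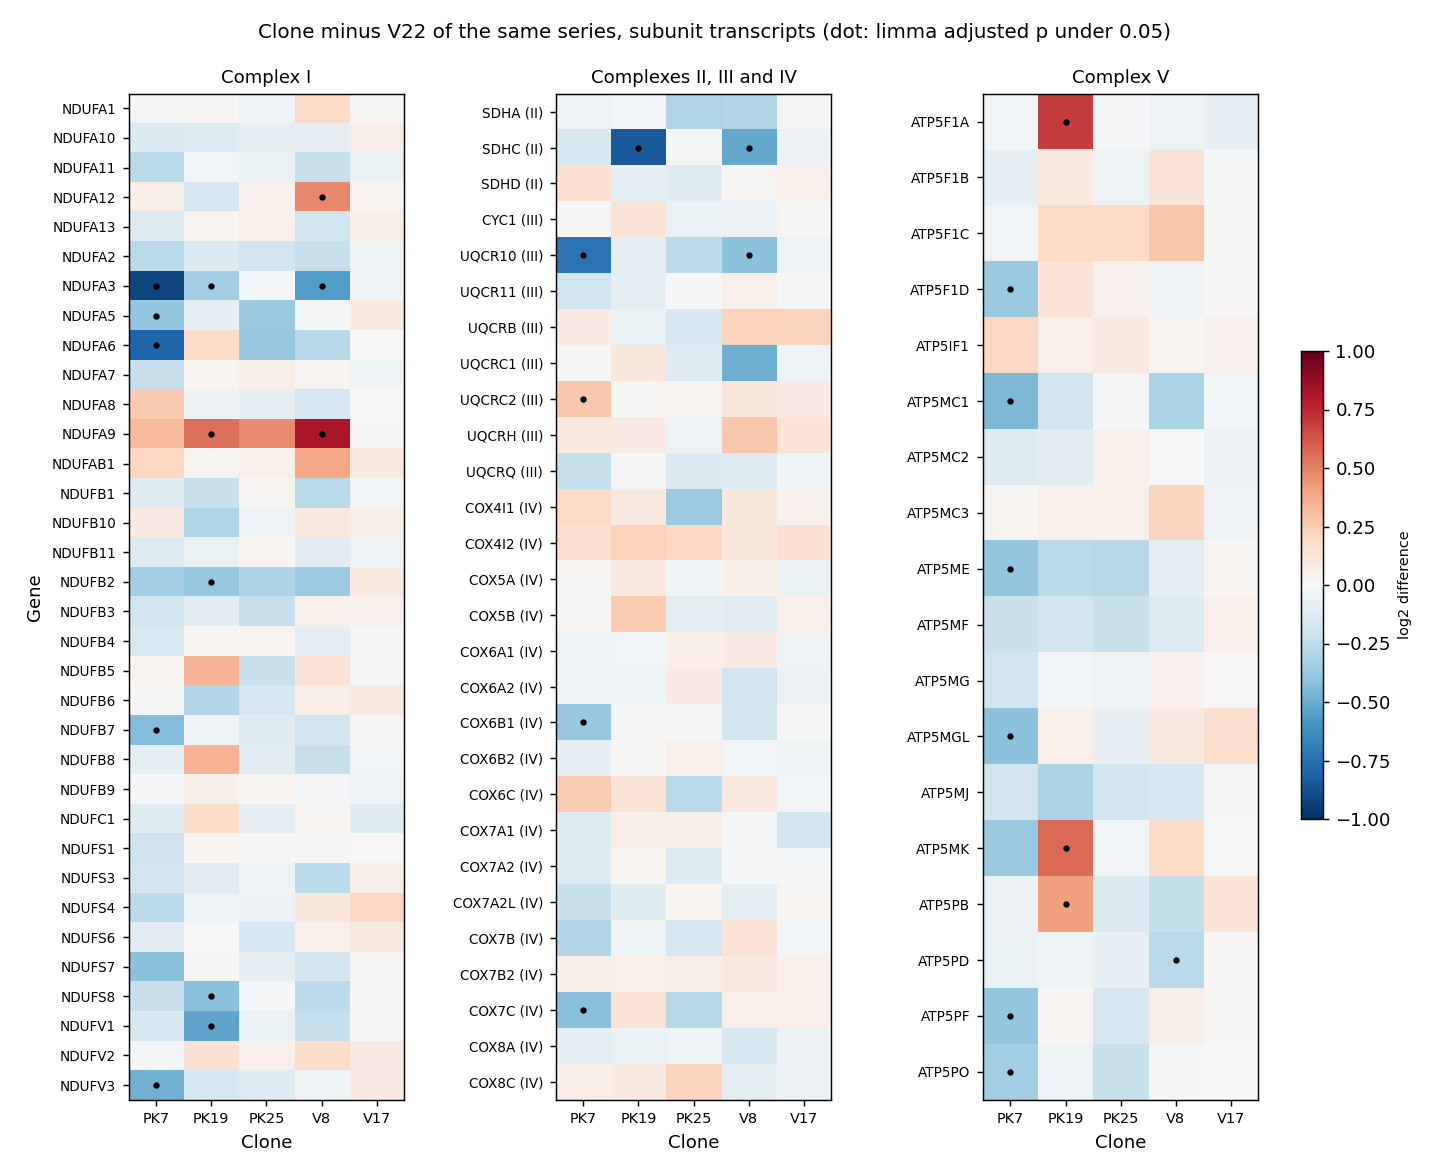
Log2 difference of each subunit transcript (rows, by complex) in PK7, PK19, PK25, V8 and V17 (columns) minus V22 of the same series, with 3 arrays per clone and a dot where the limma adjusted p was under 0.05. The deepest colours are NDUFA3, NDUFA6 and UQCR10 in PK7, SDHC and ATP5F1A in PK19 and NDUFA9 in V8, and the V17 column is pale throughout, between -0.18 and 0.22.

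The comparison of the parkin clones with the vector clones, 3 clone means against 3, found no subunit transcript past the threshold of an adjusted p under 0.05. The threshold holds for limma with Benjamini-Hochberg adjustment over all 26947 probe sets, of which 0.00371% passed. At an unadjusted p under 0.05 there were 5 subunits (6.25%), all lower in parkin clones, against 14.1% of all probe sets and 13.2% of the 8717 genes described next. Differences ran from -0.31 to 0.26 with a median of -0.06, and 25 subunits were higher and 55 lower. Over all probe sets the median was 0.0036 with 49.1% lower. Over the 8717 genes that were placed on a chromosome and averaged above 7, a level most subunits share, the median was -0.05 with 59.5% lower. The complex medians were -0.10 for complex I, -0.04 for complex II, -0.08 for complex III, 0.01 for complex IV and -0.05 for complex V. The median standard error of a single subunit was 0.0967.

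ATP5ME, subunit e of the ATP synthase membrane part, had the smallest p in this comparison. It averaged 9.79 in PK7, 9.92 in PK19 and 9.91 in PK25, against 10.10 in V8, 10.20 in V17 and 10.18 in V22. These clone means hold the shift of the first series, and without it ATP5ME averaged 10.06 in V8 and 10.17 in V17. The groups did not overlap, and the difference was -0.29 (SE 0.0739, limma adjusted p = 0.306, lower in 3 of 3 parkin clones). NDUFA5, an accessory subunit of the matrix arm of complex I, averaged 10.18 ± 0.175 in parkin clones and 10.49 ± 0.0523 in vector clones (SD, n = 3 clones each), a difference of -0.31 (SE 0.103, limma adjusted p = 0.319). PK19 at 10.39 lay nearest to the vector clones. NDUFB3, a membrane arm subunit, differed by -0.21, NDUFS4, a dim probe set of an accessory subunit known from Leigh syndrome, by -0.23, and ATP5MF, subunit f of ATP synthase, by -0.18. None of these 5 had an adjusted p below 0.306.

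Clone means did not overlap between the groups for 13 subunits that were lower and 3 that were higher in parkin clones, 16 of 80 in all. Among all probe sets, 10.9% were lower in this way and 12.3% higher. The 3 higher ones were COX4I2 (0.11), COX8C (0.18) and ATP5IF1 (0.09), of which COX4I2 and COX8C are dim probe sets of an oxygen-responsive and a testis-type isoform of complex IV. The 13 lower ones included 6 of complex I, 5 of complex V and a single gene each of complexes III and IV, among them NDUFV3 (-0.26), COX7B (-0.20) and ATP5PO (-0.20), the last encoding the stalk subunit OSCP. At the other end of complex I, NDUFA9 stood at 0.18 (SE 0.231), with the vector clones apart from each other: V8 was at 10.02, V17 at 9.18 and V22 at 9.19, and the parkin clones lay between them at 9.51 to 9.75. ATP5F1A, the alpha subunit of the catalytic head, had the largest positive difference, 0.26 (SE 0.198), with PK19 at 11.51 and the other parkin clones at 10.78 and 10.80.

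No catalytic or core subunit passed between the groups. Of the complex I core, NDUFV1 (NADH binding) differed by -0.18, NDUFS7 by -0.10, NDUFS1 by -0.06, NDUFS3 by -0.04 and NDUFV2 by -0.03. In complex II the flavoprotein subunit SDHA differed by -0.03 and the membrane anchors SDHC and SDHD by -0.15 and -0.04. In complex III the core proteins UQCRC1 and UQCRC2 differed by 0.18 and 0.04 and cytochrome c1 (CYC1) by 0.04, whereas the small subunits UQCR10 and UQCRB stood at -0.21 and -0.20. In complex IV, COX5A and COX5B differed by 0.02 and 0.07. In complex V the beta subunit ATP5F1B differed by -0.05 and the gamma subunit ATP5F1C by 0.02. The adjusted p of each of these was 0.408 or above.

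Isoform pairs gave no call in this comparison. COX4I1, the isoform found in most tissues, differed by -0.08 and its oxygen-responsive counterpart COX4I2 by 0.11. The common isoforms COX6A1, COX6B1, COX7A2, COX7B and COX8A stood between -0.20 (COX7B) and -0.002 (COX8A). The muscle isoforms COX6A2 and COX7A1 differed by 0.08 and 0.07, and the testis-type isoforms COX6B2, COX7B2 and COX8C by 0.01, 0.01 and 0.18. COX7A2L, a factor of the joining of complexes III and IV, differed by -0.08. The 3 genes of the ATP synthase c subunit, ATP5MC1, ATP5MC2 and ATP5MC3, differed by -0.10, -0.04 and -0.02. The dimmest members were COX7B2, COX6B2 and COX8C, with means of 3.76, 4.15 and 4.15.

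**Figure D2:**
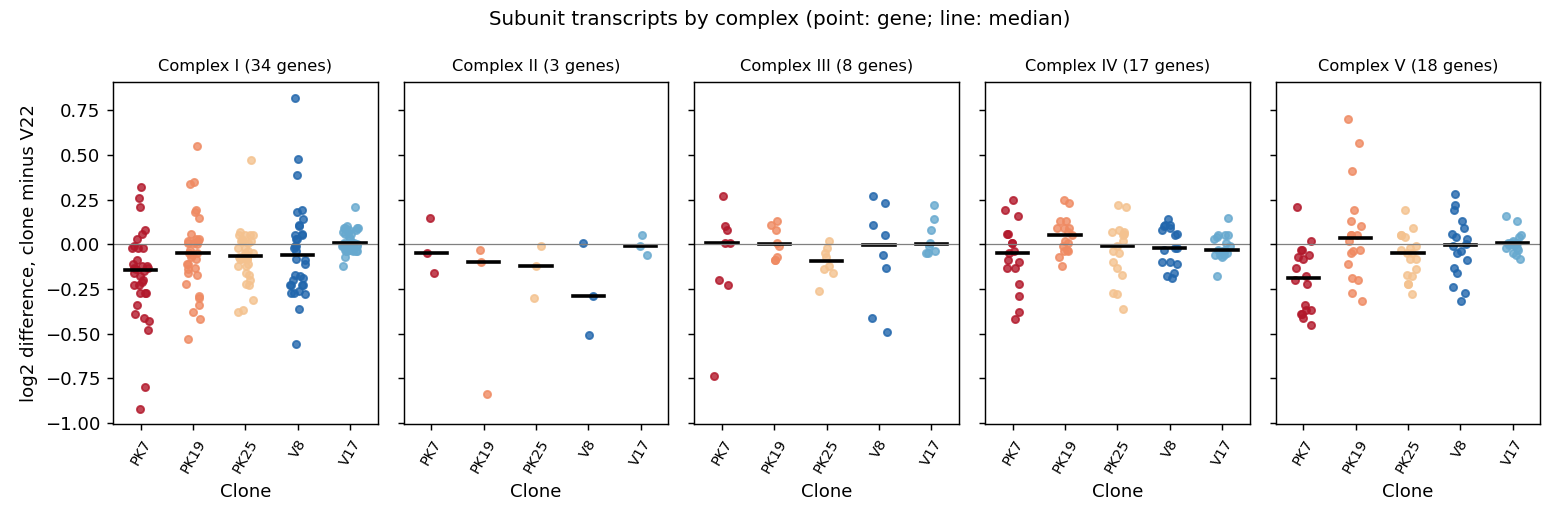
Log2 difference of each subunit transcript (points) from V22 of the same series in the 5 other clones, by complex, with the median of the complex as a line. In PK7 the median was -0.14 for complex I and -0.19 for complex V, and in V17 the points lie close to 0.

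The clones were then taken singly against V22, which asks whether a subunit stood apart in some clones without the others. PK7, PK19 and PK25 share the V22 arrays of the second series, and V8 and V17 those of the first. PK7 had the most changed subunits: 15 passed, 14 lower and UQCRC2 higher. Over all probe sets, 8.11% passed as lower in PK7 and 7.11% as higher. Among the 8717 expressed placed genes, 1526 passed as lower and 991 as higher. That was 28.9% in either direction, against 18.8% of the subunits. The median difference was -0.13, with 59 of 80 subunits lower, against -0.05 and 56.9% lower over the expressed placed genes. By complex, 28 of 34 subunits of complex I, 16 of 18 of complex V, 10 of 17 of complex IV, 3 of 8 of complex III and 2 of 3 of complex II were lower. No subunit reached a 2-fold difference from V22 in PK7 or in any other clone. The number that passed was 7 without V22 array 4 or V22 array 6 and 9 without the third PK7 array. Without the second PK7 array, ATP5MC1, ATP5MGL, ATP5PF, COX7C and NDUFA5 no longer passed. NDUFA3 passed in all 12 alternatives run for PK7, whereas COX7C, ATP5PF and UQCRC2 each did not pass in 7 of the 12, ATP5ME in 6 and NDUFA5 in 5.

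NDUFA3, a small accessory subunit of the complex I membrane arm, differed most. It was at 9.71, 9.84 and 9.60 on the PK7 arrays, against 10.59, 10.62 and 10.68 on the V22 arrays. Every PK7 array lay below every V22 array, and the difference was -0.92 (SE 0.0995, fold 0.530, limma adjusted p = 1.95e-06). PK19 was also lower, at 10.46, 10.16 and 10.26 (-0.34, SE 0.0995, adjusted p = 0.0263), but this call did not hold in 8 of 12 alternatives, with an adjusted p of 0.0544 after quantile normalization and 0.136 without the second PK19 array (-0.27). The arrays of PK25, at 10.53, 10.63 and 10.66, overlapped V22 (-0.02). In the first series the vector clone V8 stood at 10.30, 9.94 and 10.15, against 10.71, 10.74 and 10.63 on the V22 arrays of that series, a fall of its own (-0.56, SE 0.0995, adjusted p = 0.000918; -0.47 without the second V8 array). V17 at 10.64, 10.63 and 10.68 overlapped V22. NDUFA3 was thus lower in the parkin clone PK7 and in the vector clone V8 in every alternative run for these clones.

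NDUFA6, an accessory subunit of the matrix arm of complex I, was at 8.99, 8.83 and 8.89 in PK7, against 9.71, 9.66 and 9.76 in V22, a difference of -0.80 (SE 0.104, limma adjusted p = 1.69e-05). It was at 9.33, 9.41 and 9.26 in PK25 (-0.38, adjusted p = 0.0911) and at 9.95, 9.72 and 10.03 in PK19 (0.19, adjusted p = 0.305). The PK25 arrays all lay below V22, while those of PK19 reached above it. UQCR10, a small subunit of complex III, was at 8.97, 8.87 and 8.93 in PK7, against 9.75, 9.51 and 9.72 in V22 (-0.74, SE 0.119, adjusted p = 0.000169). In V8 it was at 9.60, 9.04 and 9.41, against 9.79, 9.69 and 9.78 in V22 of the first series (-0.41, adjusted p = 0.0387), but at -0.25 with an adjusted p of 0.218 without the second V8 array.

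The other lower subunits of PK7 had smaller differences. In complex I, NDUFV3, an accessory subunit beside the NADH site, fell by 0.48 (8.10, 8.16 and 8.15 in PK7, against 8.70, 8.58 and 8.56 in V22), NDUFB7 by 0.43 and NDUFA5 by 0.39. In complex IV, COX7C fell by 0.42 and COX6B1, on the side where cytochrome c docks, by 0.38. Complex V had 6 of the 14: the c subunit gene ATP5MC1 fell by 0.45, ATP5MGL by 0.41, ATP5ME and the coupling factor ATP5PF each by 0.39, the delta subunit ATP5F1D by 0.37 and ATP5PO by 0.34. The c subunit genes ATP5MC2 (-0.13) and ATP5MC3 (0.02) did not pass. UQCRC2, the higher one, was at 11.54, 11.30 and 11.54 in PK7, against 11.19, 11.13 and 11.24 in V22 (0.27, SE 0.0837, adjusted p = 0.0306).

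In PK19, 9 subunits passed, 4 higher and 5 lower, against 6.65% higher and 7.4% lower over all probe sets. Among the 8717 expressed placed genes, 892 passed as higher and 1274 as lower. That was 24.8% in either direction, against 11.2% of the subunits. The median difference was -0.0016, with 40 subunits higher and 40 lower. In complex V the moved subunits were higher: ATP5F1A, ATP5MK and ATP5PB, the last of the peripheral stalk. In complex I, NDUFA9 was higher and NDUFA3, NDUFB2, NDUFS8 and NDUFV1 were lower. The number that passed was 4 without V22 array 6, 5 without the third PK19 array and 7 without the second, where the median moved to 0.06.

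SDHC, which anchors complex II in the membrane and binds its heme, was at 9.22, 9.20 and 9.17 in PK19, against 9.99, 10.09 and 10.05 in V22. The difference was -0.84 (SE 0.122, fold 0.558, limma adjusted p = 4.39e-05), and the PK19 arrays lay far below those of all other clones in the second series. The dimmer probe set of SDHC differed by -0.57 in PK19 (adjusted p = 0.0408). PK7 stood at 9.93, 9.74 and 9.96 (-0.16) and PK25 at 9.97, 10.17 and 9.96 (-0.01). In V8 it was at 10.06, 9.41 and 9.96, against 10.37, 10.29 and 10.29 in V22 (-0.51, adjusted p = 0.0116), and at -0.31 with an adjusted p of 0.0511 without the second V8 array. The dimmer probe set of SDHC differed by -0.29 in V8 and did not pass (adjusted p = 0.436). The other complex II genes in PK19 stood at -0.03 (SDHA) and -0.10 (SDHD).

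ATP5F1A was at 11.58, 11.42 and 11.54 in PK19, against 10.81, 10.79 and 10.86 in V22 (0.70, SE 0.111, fold 1.62, limma adjusted p = 0.000122). All other clones stayed near V22, between -0.08 and -0.02. ATP5MK, a small membrane subunit linked to dimers of the synthase, was at 11.54, 10.89 and 11.56 in PK19, against 10.89, 10.81 and 10.59 in V22, so that the second PK19 array met the highest V22 array (0.57, SE 0.150, adjusted p = 0.0124, and 0.78 without that PK19 array). Its dimmer probe set gave 0.45 (adjusted p = 0.00306). In PK7 ATP5MK stood at -0.37 (adjusted p = 0.119) and its dimmer probe set at -0.41 (adjusted p = 0.00749). ATP5PB was higher by 0.41 in PK19, a call that did not hold in 6 of 12 alternatives.

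NDUFV1, which binds NADH and the flavin, was at 10.66, 10.51 and 10.65 in PK19, against 11.16, 11.09 and 11.15 in V22 (-0.53, SE 0.101, limma adjusted p = 0.000886). The groups did not overlap. The iron-sulphur subunit NDUFS8 fell by 0.42 and NDUFB2 by 0.38, with adjusted p of 0.044 and 0.0499. Each of these calls was lost in 8 of 12 alternatives: after quantile normalization the adjusted p were 0.0574 and 0.0738, and without the second PK19 array the differences were -0.35 for both (0.175 and 0.155). NDUFA9, near the coenzyme Q site, was at 9.78, 9.61 and 9.85 in PK19, against 9.33, 9.06 and 9.18 in V22 (0.55, SE 0.118, adjusted p = 0.00222). The vector clone V8 had the larger difference, at 10.16, 10.03 and 9.88, against 9.16, 9.21 and 9.22 in V22 of the first series (0.82, SE 0.118, fold 1.77, adjusted p = 0.000131, and likewise 0.82 with an adjusted p of 0.000864 without the second V8 array). PK25 stood at 0.47 (adjusted p = 0.0528) and PK7 at 0.32 (adjusted p = 0.0776), and V17 at -0.02.

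In PK25 no subunit passed in limma, and 1.37% of all probe sets passed. An unadjusted p under 0.05 was found for 10 subunits (12.5%), against 11.3% of all probe sets and 15.9% of the expressed placed genes. Limma with a trended and robust variance called 2 subunits, and without the second PK25 array the count was 1. It was 6 without the set 2 arrays and V22 array 5. Its median was -0.05. COX4I1, the common isoform of a regulatory subunit of complex IV, was at 8.10, 8.06 and 8.15 in PK25, against 8.45, 8.47 and 8.48 in V22 (-0.36, SE 0.0923, adjusted p = 0.0589). Those 3 arrays lay below V22, while PK7 at 8.64, 8.76 and 8.56 lay above it and PK19 at 8.55, 8.55 and 8.57 likewise.

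The vector clones differed from each other too. In V8, 6 subunits passed: NDUFA9 and NDUFA12 were higher, and NDUFA3, SDHC, UQCR10 and ATP5PD, a stalk subunit, were lower. Over all probe sets 3.78% passed as higher and 4.22% as lower. Among the 8717 expressed placed genes, 585 passed as higher and 672 as lower. That was 14.4% in either direction, against 7.5% of the subunits. Without the second V8 array 5 passed and the median moved to 0.05, against -0.02 with it. The count was 2 without the first V22 array and 3 without the third. NDUFA12 was at 9.28, 9.16 and 9.36 in V8, against 8.81, 8.75 and 8.82 in V22 (0.48, adjusted p = 0.0206, and 0.53 with 0.0282 without the second V8 array). ATP5PD stood at -0.28 without that array (adjusted p = 0.0392). The call of ATP5PD and that of NDUFA12 did not hold in 6 of 13 alternatives each, and that of UQCR10 in 9. In V17 no subunit passed in limma and none had an unadjusted p under 0.05. Over all probe sets 0% passed in V17, and 730 had an unadjusted p under 0.05. Limma with a trended and robust variance also called none of the subunits in V17.

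V22 itself was measured in both series. No subunit passed between its first and second series, and 0.0297% of all probe sets passed. An unadjusted p under 0.05 was found for 5 subunits (6.25%), against 8.75% of all probe sets. The differences ran from -0.41 (NDUFA1) to 0.32, a range that bears on values that join the series. NDUFA1, a membrane arm subunit, was at 9.88, 9.99 and 9.89 in the first series, against 10.30, 10.32 and 10.35 in the second.

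**Figure D3:**
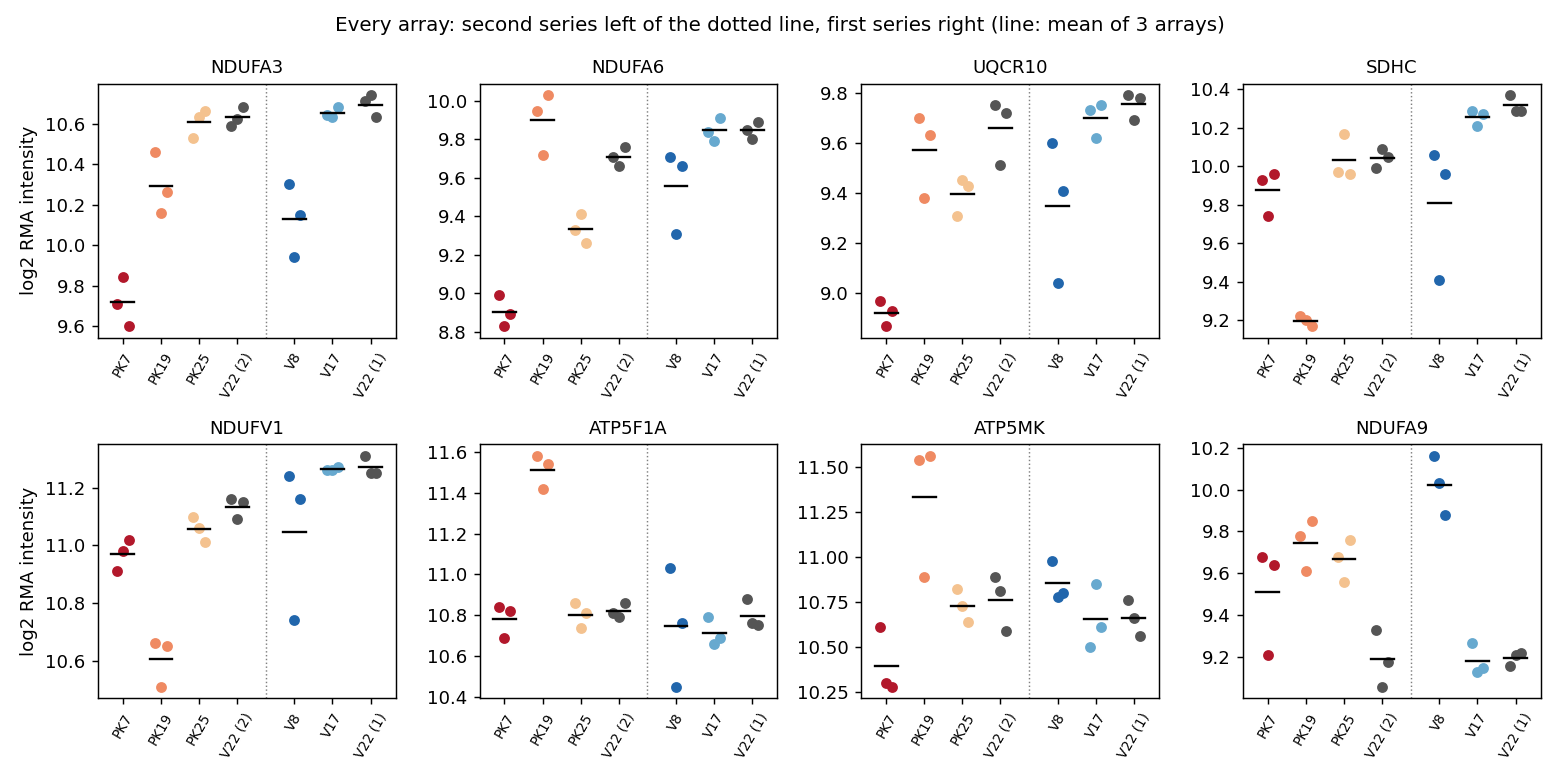
Log2 RMA intensity of 8 subunit transcripts on every array, with the parkin clones left of V22 of the second series, written V22 (2), and V8 and V17 left of V22 of the first series, written V22 (1), and the mean of 3 arrays as a line. NDUFA3 is low in PK7, at 9.60 to 9.84, SDHC is low in PK19, at 9.17 to 9.22, and NDUFA9 is highest in V8, at 9.88 to 10.16.

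The 3 parkin clones were also set against each other by an F test that makes no use of V22. It called 21 of 80 subunits, 26.2%, a share near the 23.6% of all probe sets. The share over the expressed placed genes was not computed for this test. With a replicate block by set number within the parkin arrays, 12 subunits passed. After the median of neighbouring genes had been subtracted, 9 subunits passed, against 30.8% of the 19274 placed probe sets. The largest F values were those of NDUFA6 (45.8, limma adjusted p = 2.15e-06), NDUFA3 (41.3, adjusted p = 4.19e-06), ATP5F1A (28.2, adjusted p = 4.3e-05) and SDHC (26.2, adjusted p = 6.48e-05). For NDUFA3 and NDUFA6 PK7 was the low clone, for SDHC PK19 was the low clone and for ATP5F1A it was the high clone. COX4I1 followed with an F of 20.0 (adjusted p = 0.000279), where PK25 was the low clone. By complex, 8 of 34 subunits of complex I, 1 of 3 of complex II, 2 of 8 of complex III, 4 of 17 of complex IV and 6 of 18 of complex V passed.

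Several of the moved subunits lay together on a chromosome, and the genes that neighbour them were measured beside them. For each subunit the median difference of up to 50 neighbouring expressed genes was taken (26 or more near chromosome ends). In PK7 the neighbours had the sign of the subunit for 15 of the 15 subunits that passed, and were at least 50% as large for 10. Subunits that did not pass were not counted in this way, so these counts have no share beside them. Among those that did not pass, NDUFB2 (-0.34) stood beside -0.34, whereas NDUFB11 (-0.13) stood beside 0.08. On chromosome 22, NDUFA6 (-0.80), UQCR10 (-0.74) and ATP5MGL (-0.41) stood beside neighbour medians of -0.57, -0.55 and -0.57, and the 207 expressed genes of the chromosome had a median of -0.54. On chromosome 21, NDUFV3, ATP5PF and ATP5PO stood beside -0.31, -0.30 and -0.35. All 11 subunits on chromosome 19 were lower in PK7 than in V22, 4 of them past the threshold, and the 578 expressed genes there had a median of -0.24. NDUFA3, at -0.92, stood further from its neighbours (-0.23) than the other subunits of that chromosome.

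In PK19 the neighbours had the same sign for 8 of the 9 subunits that passed, and subunits that did not pass were again not counted. ATP5F1A (0.70) stood beside a neighbour median of 0.56, ATP5MK (0.57) beside 0.39, NDUFA9 (0.55) beside 0.27, and NDUFV1 and NDUFS8 of chromosome 11 (-0.53 and -0.42) beside -0.32 and -0.33. SDHC was the exception, at -0.84 beside 0.03. The probe sets used for SDHC, SDHD, NDUFV2 and ATP5MK are numbered among those of genes on other chromosomes, unlike their dimmer probe sets. Neighbours were taken at the listed position of the gene, and where these probes match was not tested. In V8, NDUFA9 (0.82) and NDUFA12 (0.48), both on chromosome 12, stood beside 0.52 and 0.42.

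When the running median of the neighbours was subtracted on each array, an alternative chosen after the data were seen, 4 subunits passed in PK7, against 21.7% of the 19274 placed probe sets (18.3% of these before). They were NDUFA3 (-0.69, adjusted p = 2e-06), COX7B (-0.37), ATP5F1D (-0.29) and ATP5IF1 (0.24), of which NDUFA3 and ATP5F1D had passed before. In PK19, 4 passed, against 19.3%: SDHC (-0.88), NDUFV1 (-0.25), NDUFB5 (0.34) and COX8C (0.40), of which SDHC and NDUFV1 had passed before. In V8, NDUFA3 (-0.38) and SDHC on its brighter probe set (-0.42) passed, against 9.36%. The chromosome copy number of the clones was not analysed here, and its part in these differences was not tested.

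**Figure D4:**
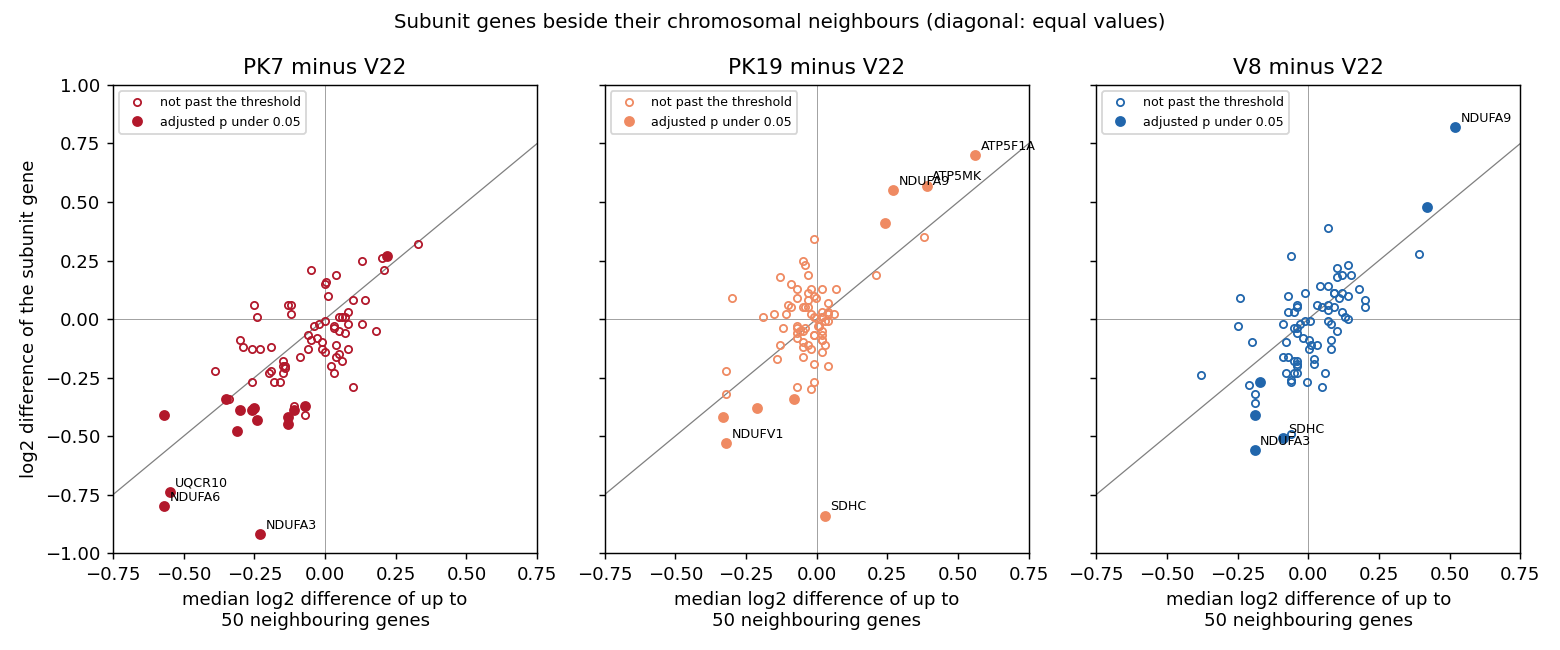
Log2 difference of each subunit transcript from V22 (vertical axis) against the median log2 difference of up to 50 neighbouring expressed genes (horizontal axis) in PK7, PK19 and V8, with filled points for an adjusted p under 0.05 and the diagonal for equal values. NDUFA6 and UQCR10 in PK7 and ATP5F1A in PK19 lie toward the diagonal's ends, and SDHC in PK19 lies at -0.84 beside a neighbour median of 0.03.

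Genes that serve the same system were counted from lists that do not overlap the subunits, apart from COX4I2, which is also on the hypoxia list. No gene of these lists passed between parkin and vector clones. As a background for their counts, 15.2% of all probe sets and 28.9% of expressed placed genes passed in PK7, and 14% and 24.8% in PK19. Of the assembly factors, 40 of 48 were measured. In PK7 none rose and 6 fell, and in PK19 3 rose and 3 fell, 15% in either clone. UQCC2, an assembly factor of complex III, fell by 1.03 in PK7, 1.18 in PK19 and 0.75 in V8 (adjusted p of 2.79e-05, 3.79e-06 and 0.00152), and by 0.63 in V8 without its second array (adjusted p = 0.0132). The expressed genes of chromosome 6, where UQCC2 lies, had medians of -0.29 in PK7 and -0.33 in PK19. The parkin minus vector difference of UQCC2 was -0.59 (SE 0.278) and that of COA7, a factor of complex IV assembly, -0.40 (SE 0.120). NUBPL, which delivers iron-sulphur clusters to complex I, fell by 0.85 in PK19. The expressed genes of its chromosome, 14, had a median of -0.48 in that clone.

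All 14 genes of cytochrome c and coenzyme Q synthesis were measured, with 3 higher and 2 lower past the threshold in PK7 (35.7%) and 2 higher and 1 lower in PK19 (21.4%). COQ8A, a kinase-like protein of coenzyme Q synthesis, was higher by 0.47 in PK7 and 0.51 in PK19, and its parkin minus vector difference was 0.50 (SE 0.144, adjusted p = 0.312). COQ3 stood at -0.25 in that comparison. Of the citric acid cycle and pyruvate dehydrogenase genes, 17 of 19 were measured, with 1 higher and 3 lower in PK7 (23.5%) and 2 lower in PK19 (11.8%). DLD, MDH2 and OGDH, enzymes of the matrix, fell by 0.47, 0.43 and 0.46 in PK7, and all lie on chromosome 7. The expressed genes of that chromosome had a median of -0.18 in PK7. The parkin minus vector differences of MDH2 and DLD were -0.27 and -0.25.

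All 15 regulators of mitochondrial gene expression were measured, and 40% passed in PK7. In PK7, PPARGC1A, the coactivator of mitochondrial biogenesis, was higher by 0.96 on a dim probe set (mean 5.71), and 5 fell, among them TFAM, which packages mitochondrial DNA, by 0.70 and NRF1 by 0.31. TWNK and PPRC1, which fell by 0.58 and 0.67 in PK7, lie on chromosome 10 like TFAM. The expressed genes of that chromosome had a median of -0.14 in PK7. None of the 15 passed in PK19 in limma, and 3 had an unadjusted p under 0.05. The parkin minus vector differences of PPARGC1A and TFAM were 0.36 and -0.35. Of the hypoxia-linked genes, 9 of 10 were measured, with 4 higher and 1 lower in PK7 (55.6%) and 4 higher in PK19 (44.4%). Between the V22 arrays of the 2 series no gene of this list passed in limma. An unadjusted p under 0.05 was found for 2 of the 9 (22.2%), against 8.75% of all probe sets. The median of the first minus the second series was 0.27 and the highest difference 0.79. PDK1, which restrains pyruvate dehydrogenase, was higher by 1.15 in PK7 and 1.18 in PK19, and BNIP3, a mitophagy receptor, by 1.58 in PK19. In PK25 they stood at 0.04 and 0.0016. Between parkin and vector clones BNIP3 differed by 0.90 (SE 0.364) and PDK1 by 0.87 (SE 0.303), with adjusted p of 0.347 and 0.324.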

How the data were processed

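Gene expression was measured on Affymetrix arrays. The authors deposited RMA intensity on a linear scale for 26947 probe sets on 21 arrays (12 of vector clones, 9 of parkin clones), per the submitters' processing notes, which name RMA without a version; joint normalization of all arrays is not given in the sources used here. Values were turned into log2. Probe sets had a single gene symbol in 19305 cases, several in 1750 and none listed in 5892. The members and lists were chosen with earlier results of these data known.

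Limma 3.58.1 in R 4.3.3 was fitted to all probe sets, with Benjamini-Hochberg adjustment and a threshold of 0.05. Each clone was set against V22 of its own series in a fit of 7 group means over arrays. Parkin and vector clones were compared on 6 clone means after the first series had been shifted, per probe set, by the difference between the V22 means of the series; vector clones share that shift, which makes those p-values too small. The reading of the series from array name prefixes is an assumption. The fits were tested on simulated data that held spread between arrays and a shift between the series. Those data held no spread between clones, so the test does not cover that spread in the comparison of clone means. Medians of lists are given with no set test. Neighbouring genes followed the RefSeq order of GRCh38.p14, and promoter windows came from the same source.

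Named genes were, per complex, the 2 largest and 2 smallest parkin minus vector differences, the catalytic subunits and tissue isoforms, members past the threshold with at least 2-fold in a clone, and the 2 largest absolute differences of each further list. Other members are named because they passed a threshold, were apart between the groups, or had the smallest p, and were chosen after their values were seen. Alternatives covered the normalization, dim probe sets (the dimmest 30% left out), the variance model, the series link, the vector arrays, the set 2 arrays, a replicate block, neighbouring genes and leaving out clones or arrays.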

Additional observations from a re-analysis of the deposited data

Results flagged for a closer look

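The 21 subunits below differed among the 3 parkin clones by the F test itself, and each value is a limma adjusted p over all probe sets. In complex I they were NDUFA6 (2.15e-06), NDUFA3 (4.19e-06), NDUFV1 (0.00437), NDUFB5 (0.00533), NDUFV3 (0.00766), NDUFB8 (0.00963), NDUFB10 (0.0245) and NDUFB7 (0.0417). SDHC (6.48e-05) was the complex II gene, and UQCR10 (0.000886) and UQCRC2 (0.0337) those of complex III. In complex IV they were COX4I1 (0.000279), COX6C (0.00368), COX6B1 (0.00527) and COX7C (0.0113). In complex V they were ATP5F1A (4.3e-05), ATP5MK (0.000293), ATP5F1D (0.000927), ATP5PB (0.00404), ATP5MGL (0.0177) and ATP5MC1 (0.0353). The share of subunits, 26.2%, lay near the 23.6% of all probe sets, and no share over the expressed placed genes was computed. After subtraction of neighbouring genes 9 passed, against 30.8% of the placed probe sets, and arrays of a clone were the observations. A replicate block by set number within the parkin arrays left 12.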

How the results depend on the processing

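No subunit passed between parkin and vector clones in any alternative run except the replicate block fit by set number, on sets 1 to 3 with arrays as observations and no adjustment for the series, where 11 passed. Nothing in the labels says that a set number marks arrays handled together. Correlations of deviations between arrays of the same set were 0.0591 to 0.216 in the first series, against -0.141 to 0.0533 between sets. In that series every pair of the same set thus lay above every pair between sets. Among parkin arrays the values were -0.0917 to 0.381, against -0.365 to 0.323. Not every pair of the same set was above 0.1, and the main fits did not take the numbers as pairs. A replicate block within the first series kept 4 of the 6 calls in V8, with adjusted p of 0.0907 for ATP5PD and 0.0593 for UQCR10. In the block fit on sets 1 to 3, the parkin minus vector medians of complexes I, II and III were -0.14, -0.32 and -0.04. NDUFB8 stood at -0.09 and ATP5PB at -0.02 there. With the first series as the only vector arrays these 5 values were the same to 2 decimals. With no adjustment for the series, complexes II and III stood at -0.27 and -0.05, NDUFB8 at -0.05 and ATP5PB at -0.0011, and with V22 of the second series alone complex III stood at -0.03. Quantile normalization gave -0.05 for complexes I and III and 0.00053 for SDHD; centring the arrays gave -0.12 for complex III, -0.03 for complex IV and -0.18 for the PK7 median. Without the set 2 arrays and V22 array 5, complex II stood at -0.17. With V17 and V22 counted as 1, SDHA stood at 0.02. Subtracting neighbours gave -0.01 for complexes I and III, 0.05 for complex IV, 0.02 for SDHD, 0.03 for SDHA, -0.06 for ATP5PB, -0.06 for the PK7 median and 0.17 for ATP5MGL in PK7. Counts after subtraction were 4 in PK7, 4 in PK19, 2 in V8 and 9 among the parkin clones, where a replicate block gave 12. In PK25, where none passed, quantile normalization or centring gave 1, leaving out dim probe sets or a trended and robust variance 2, and leaving out the set 2 arrays 6. Leaving out each array gave 7 to 12 in PK7, 4 to 7 in PK19, 0 to 1 in PK25, 2 to 7 in V8, 0 in V17 and 17 to 24 among the parkin clones. Leaving out each clone gave medians of -0.08 to -0.01 over all subunits, -0.1 to -0.01 (complex I), -0.13 to 0.0013 (II), -0.12 to -0.04 (III), -0.01 to 0.02 (IV) and -0.12 to -0.01 (V). Signs turned without PK19 for NDUFB8 (-0.01 to 0.21 over the clones left out), SDHC (-0.31 to 0.10), CYC1 (-0.01 to 0.08) and ATP5PB (-0.06 to 0.21), without PK25 for SDHD (-0.13 to 0.0013), and without PK25, V17 or V22 for SDHA (-0.12 to 0.06). The causes were not tested.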
